A study of Mus musculus with 32 samples.

Results

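The enzymes described here modify the nucleotides of tRNA, and Ftsj1, the methyltransferase in which the mice were deficient, is not among them. The set holds 59 genes chosen by name, as known or probable writers of tRNA modifications and their partner subunits. All 59 were found among the 55289 named genes of each of the 5 deposited tables. The values count degradome tags, short reads from the starts of uncapped poly(A) RNA, so each stands for decapped or cleaved transcripts and not for intact mRNA. They were measured in whole organs of Ftsj1-deficient male mice, labelled Ftsj1_DF, and of wild-type males, labelled WT, all 4 months old and untreated. Brain, heart, kidney and liver came from the same 6 mice, with 3 libraries per genotype and organ, and the spleens were those of 8 further mice, with 4 libraries for each genotype. The labels describe sets of brothers and give 1 batch for every library. They do not give the allele or the strain, nor the number of cells.

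A tRNA carries many modified bases, and most are made after transcription by enzymes that each recognise certain tRNAs and positions. Modifications at the wobble base and at the purine beside the anticodon tune decoding and hold the reading frame, while methyl groups, pseudouridines and dihydrouridines in the rest of the molecule shape its fold and stability. Ftsj1 adds a methyl group to the ribose of nucleotides in the anticodon loop. In yeast, its homologue Trm7 acts on tRNA-Phe before the purine beside the anticodon can be turned efficiently into wybutosine, a tricyclic guanosine derivative made in steps by the Trmt5, Tyw1, Trmt12, Tyw3 and Lcmt2 proteins.

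The authors deposited, per organ, a DESeq2 comparison of the genotypes and no values per library, so a member is described by its mean normalized count over all libraries of both genotypes and by its log2 fold change with a standard error (SE). The direction is not stated in the tables. It was read as deficient over wild type because Ftsj1 was negative in all 5 of the authors' deposited tables, at -1.56 ± 0.61 for kidney, -1.72 ± 1.03 for heart, -3.17 ± 0.77 for spleen, -3.38 ± 0.59 for liver-named and -2.84 ± 0.38 for brain-named (log2 fold change ± SE). Ftsj1 itself did not pass the 5% false discovery rate in the authors' deposited kidney and heart tables (DESeq2 adjusted p = 0.202 and 0.594). The tables named for brain and liver went against their names: 10 neuron markers had a median mean of 18311 normalized counts under the name liver but 159 under the name brain, and 10 hepatocyte markers had 288811 under the name brain but 1329 under the name liver. They are called brain-named and liver-named for that reason. Cardiomyocyte, proximal tubule and B cell markers had their highest medians in the heart, kidney and spleen tables. The spleen table also held pancreatic acinar markers at a median mean of 147606.

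Of the 59 members, an adjusted p was given for 54 in the kidney table, 55 for heart, 56 for spleen, 56 for liver-named and 53 for brain-named. Adat3 and Trmt2a were listed at 0 in all 5, and Pus3, a pseudouridine synthase, had means between 0.324 and 4.98 normalized counts and was never tested. Cdkal1, Trub2, Tyw1 and Tyw3 passed the 5% false discovery rate in the authors' deposited tables: Cdkal1 fell and Trub2 rose in the heart, and Tyw1 fell and Tyw3 rose in the kidney. That was 2 of 55 tested members in the heart, where 1.19% of all tested genes passed, and 2 of 54 in the kidney, where 2.07% passed. No member passed in the spleen table (0.217% of all genes), the liver-named table (0.203%) or the brain-named table (0.414%). Without adjustment, members with p under 0.05 numbered 5 for kidney (11.9% of all genes), 8 for heart (10.6%), 2 for spleen (5.97%), 2 for liver-named (10.4%) and 5 for brain-named (10.8%). In percent of the members tested, these counts lie within a few points of the share of all genes for kidney, heart, spleen and brain-named, and below it for liver-named.

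Most log2 fold changes of members were small beside their errors. The median over tested members was 0.26 for kidney, 0.15 for heart, 0.03 for spleen, 0.06 for liver-named and 0.16 for brain-named, computed from the authors' deposited fold changes. A mean weighted by the inverse squared SE was 0.03 for kidney, 0.09 for heart, -0.04 for spleen, 0.13 for liver-named and 0.09 for brain-named, so the sign turned for spleen and the kidney value shrank. The unweighted medians over all tested genes were -0.01 for kidney, 0.01 for heart, -0.01 for spleen, -0.05 for liver-named and 0.04 for brain-named. The median SE of a member lay between 0.39 in the brain-named and 0.60 in the spleen table. It is the error of a gene's fold change and not of a median over members, for which no error was computed. Positive values were found for 32 of 54 members in kidney, 37 of 55 in heart, 31 of 56 in spleen, 33 of 56 under liver-named and 32 of 53 under brain-named. Of all tested genes 49.1% were positive for kidney, 51.1% for heart, 49.5% for spleen, 47.1% for liver-named and 53.3% for brain-named.

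**Figure D1:**
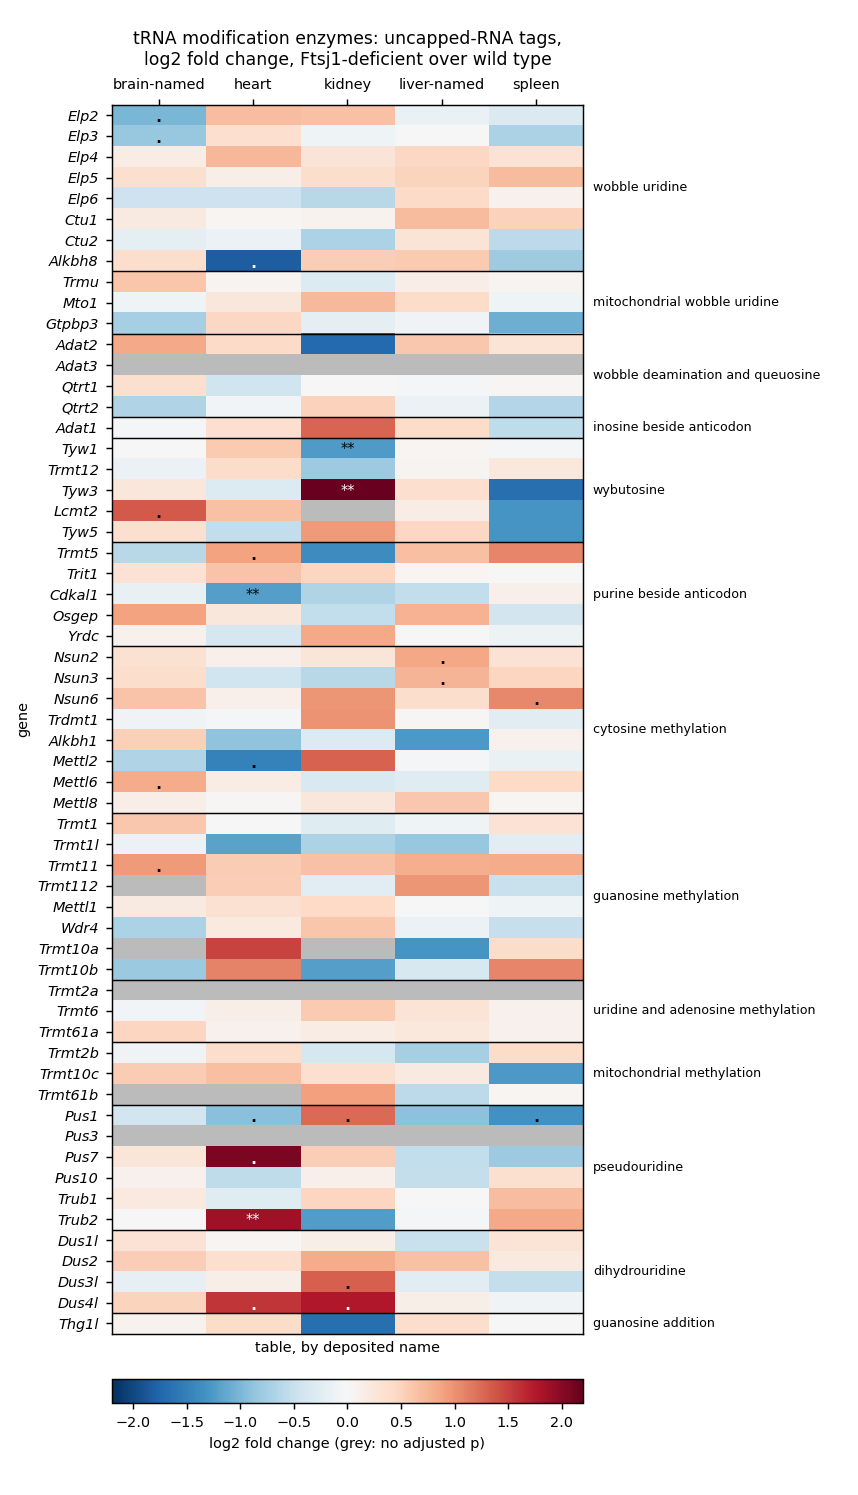
Log2 fold change (deficient over wild type, colour) of the 59 members (rows, grouped by the modification they make) in the 5 deposited tables (columns); double asterisks mark an adjusted p under 0.05, dots an unadjusted p under 0.05, and grey no adjusted p. The 4 cells with double asterisks lie in the heart (Cdkal1, Trub2) and kidney (Tyw1, Tyw3) columns, and the rows of Adat3, Trmt2a and Pus3 are grey throughout.

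Wybutosine synthesis held both members that passed in the kidney, and they moved in opposite directions. Tyw1, the iron-sulfur enzyme that closes the tricyclic ring, fell in deficient kidneys by 1.25 ± 0.25 on the log2 scale (0.42-fold, 95% interval -1.74 to -0.76, mean 608 normalized counts, DESeq2 adjusted p = 0.00019) in the authors' deposited kidney table. Tyw3, the methyltransferase that acts after the ring has been closed, rose by 2.18 ± 0.64 there (4.54-fold, 95% interval 0.92 to 3.44, mean 177, adjusted p = 0.0379 in the authors' deposited table). The Tyw3 call was lost under other settings, with an adjusted p of 0.0617 when every gene with a p-value was counted and of 0.168 when the statistic was rescaled to its robust spread of 1.15, whereas Tyw1 stayed under 0.05 in both. Fewer cells of a type and less RNA per cell cannot be told apart in whole organs.

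The start of each gene is shown because these are the members of the pathway whose tags changed. Each line gives 250 bases before to 50 bases after an annotated start, from RefSeq on build GRCm38.p6, read on the strand of the gene, with capitals for motifs searched on both strands: TGACGTCA, the cyclic AMP response element, in the Tyw1 window at chr5:130255369-130255668 (plus strand, 1 of 2 windows of the gene) and CCAAT in the Tyw3 window at chr3:154597049-154597348 (minus strand).
Tyw1: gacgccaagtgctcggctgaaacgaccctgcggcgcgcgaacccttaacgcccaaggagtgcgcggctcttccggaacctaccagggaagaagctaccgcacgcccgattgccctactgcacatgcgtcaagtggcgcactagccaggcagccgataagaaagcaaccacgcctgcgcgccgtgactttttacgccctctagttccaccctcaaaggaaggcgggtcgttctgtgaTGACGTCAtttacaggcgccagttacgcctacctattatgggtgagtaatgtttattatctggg
Tyw3: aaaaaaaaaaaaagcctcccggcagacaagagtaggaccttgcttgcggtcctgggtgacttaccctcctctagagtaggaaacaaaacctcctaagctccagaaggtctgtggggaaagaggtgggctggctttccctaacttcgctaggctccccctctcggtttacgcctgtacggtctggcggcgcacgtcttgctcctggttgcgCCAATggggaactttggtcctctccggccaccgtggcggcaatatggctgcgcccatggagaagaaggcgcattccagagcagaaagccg

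These letters do not show that a factor binds there. TGACGTCA occurred in 5 of 63 member windows (7.94%) and in 1.79% of all 32851 windows, and CCAAT in 41.3% of member windows and 37.4% of all windows. The other Tyw1 window, which is not shown, held CCAAT and no TGACGTCA. The Tyw1 window shown held 27 CG dinucleotides and the Tyw3 window 16.

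Outside the kidney, Tyw1 was close to 0 in 3 tables of the authors' deposited set, at -0.05 ± 0.46 for spleen, 0.04 ± 0.37 for liver-named and 0.01 ± 0.33 for brain-named (log2 fold change ± SE), and was 0.58 ± 0.41 for heart. Its fold change in the heart exceeded that in the kidney by 1.84 ± 0.48 (95% interval 0.89 to 2.78, adjusted p = 0.0305, z test of the authors' deposited DESeq2 fold changes). Between these tables, 0.638% of 17874 genes differed at this threshold. The z test treats the tables as independent, although heart and kidney came from the same mice, and after rescaling its robust spread the adjusted p was 0.105. The other Tyw1 differences from the kidney gave adjusted p = 0.0949 against the brain-named, 0.170 against the liver-named and 0.482 against the spleen table, from the authors' DESeq2 values.

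Tyw3 had low means elsewhere, between 31.0 normalized counts in the brain-named and 99.0 in the liver-named table, with wide errors. Its log2 fold change in the authors' deposited spleen table was -1.66 ± 0.93, opposite in sign to the kidney, and the difference of 3.84 (95% interval 1.63 to 6.06, kidney minus spleen) had adjusted p = 0.0993 by the z test on DESeq2 values. Tyw3 overlaps the gene of the quinone reductase Cryz in the annotation, and whether the authors counted by strand is not given in the sources used here, so tags of the pair cannot be told apart. In the authors' deposited kidney table Cryz had a mean of 1136 and a log2 fold change of -0.35 ± 0.52, opposite in sign to that of Tyw3.

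No other enzyme of the pathway passed the 5% false discovery rate. Trmt5, which makes the methylguanosine that wybutosine starts from, was just outside it in the authors' deposited heart table at 0.88 ± 0.28 (adjusted p = 0.097), and was -1.38 ± 0.96 in the kidney. Trmt12, which transfers the side chain, was -0.80 ± 0.42 in the kidney of the authors' deposited set (adjusted p = 0.43) and between -0.12 and 0.40 elsewhere. Lcmt2, which completes the side chain, was 1.34 ± 0.63 in the authors' deposited brain-named table (unadjusted p = 0.0322, adjusted p = 0.39), and had no p-value in the kidney. Tyw5, the hydroxylase of the pathway in mammals, ranged from -1.30 ± 0.79 in the spleen to 0.93 ± 1.12 in the kidney of the authors' deposited tables. With mean counts as low as 10.8 for Tyw5, errors near 1 on the log2 scale leave changes of that size undetectable.

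**Figure D2:**
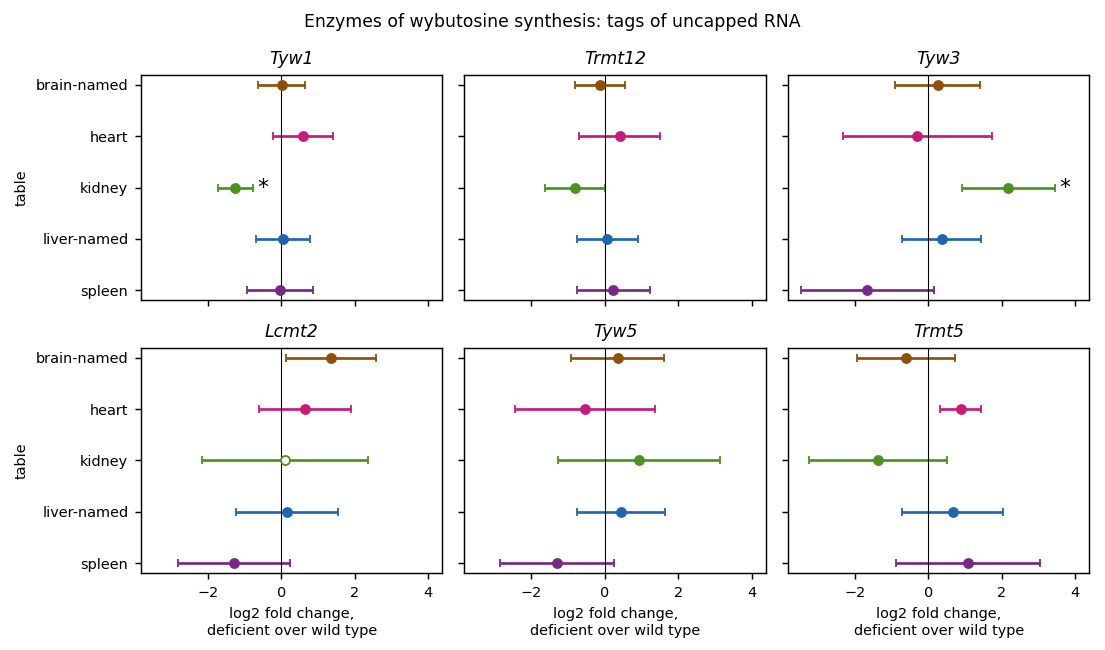
Log2 fold change (deficient over wild type, x axis) of 6 wybutosine enzymes in each deposited table (y axis); points are the authors' values, bars 1.96 SE either side, asterisks an adjusted p under 0.05 and the open symbol a value with no adjusted p. In the kidney row the Tyw1 bar lies wholly below 0 and the Tyw3 bar wholly above it.

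The member with the smallest p in the heart was Cdkal1, which adds a methylthio group to the adenosine beside the anticodon of tRNA-Lys and lies in a locus linked to diabetes in humans. It fell in deficient hearts by 1.21 ± 0.29 on the log2 scale (0.432-fold, 95% interval -1.78 to -0.64, mean 1170 normalized counts, adjusted p = 0.00762) in the authors' deposited heart table. Trub2, a mitochondrial pseudouridine synthase, rose there by 1.87 ± 0.47 (3.66-fold, 95% interval 0.95 to 2.79, mean 134, adjusted p = 0.0134 in the authors' deposited DESeq2 table). Neither stayed under 0.05 when the statistic was rescaled to its robust spread of 1.16, with adjusted p = 0.0804 for Cdkal1 and 0.116 for Trub2.

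Their starts are shown as those of the 2 members that changed in the heart. Capitals mark GCATGCGC, the core of the element of nuclear respiratory factor NRF1, in the Cdkal1 window at chr13:29855624-29855923 (minus strand), and none of the 7 motifs searched was in the Trub2 window at chr2:29787622-29787921 (minus strand).
Cdkal1: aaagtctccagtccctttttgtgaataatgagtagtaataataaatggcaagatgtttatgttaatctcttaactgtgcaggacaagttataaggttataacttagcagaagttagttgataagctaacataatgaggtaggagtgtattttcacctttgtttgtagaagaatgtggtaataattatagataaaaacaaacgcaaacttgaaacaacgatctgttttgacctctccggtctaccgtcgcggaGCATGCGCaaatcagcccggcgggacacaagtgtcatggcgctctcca
Trub2: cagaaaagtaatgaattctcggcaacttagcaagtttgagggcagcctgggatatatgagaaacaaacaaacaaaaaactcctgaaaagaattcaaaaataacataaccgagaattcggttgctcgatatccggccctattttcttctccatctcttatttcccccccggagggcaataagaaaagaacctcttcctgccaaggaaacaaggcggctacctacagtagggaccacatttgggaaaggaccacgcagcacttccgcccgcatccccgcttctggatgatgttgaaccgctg

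GCATGCGC was found in 5 of 63 member windows, 7.94%, and in 2.71% of all windows. The Cdkal1 and Trub2 windows held 10 and 12 CG dinucleotides, against a median of 21 over member windows and 7 over all windows.

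Side by side, Cdkal1 was -0.66 ± 0.39 for kidney, 0.11 ± 0.38 for spleen, -0.54 ± 0.42 for liver-named and -0.17 ± 0.33 for brain-named in the authors' deposited tables. None of its differences from the heart passed, the smallest adjusted p being 0.351 for brain-named minus heart (1.04, 95% interval 0.18 to 1.91, from the deposited DESeq2 values). Trub2 was -1.22 ± 0.84 for kidney, 0.83 ± 1.04 for spleen, -0.04 ± 0.38 for liver-named and -0.01 ± 0.48 for brain-named in the authors' deposited tables. Its difference of 3.09 between heart and kidney had a 95% interval of 1.21 to 4.98 and adjusted p = 0.115 from the deposited DESeq2 values. Trub2 overlaps Coq4, a gene of coenzyme Q synthesis, and Coq4 had a mean of 3041 and a log2 fold change of 0.17 ± 0.26 in the authors' deposited heart table. Whether the Trub2 value holds tags of its neighbour was not tested.

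Markers of other cell types passed the 5% false discovery rate in the heart, kidney and brain-named tables. None passed in the spleen and liver-named tables, where some lists still leaned to one sign. In the authors' deposited heart table, 7 of 8 tested adipocyte markers were negative with a median log2 fold change of -2.08, none of the 8 passed, and Lipe was at 0. B cell markers were negative for 5 of 7 tested genes there, with a median of -1.69, a DESeq2 call for Ighm (-2.28, adjusted p = 0.0481) and Ms4a1 at 0. In the authors' deposited kidney table all 4 tested adrenal markers were negative with a median of -3.13, Star passed at -4.65 (adjusted p = 0.00135), and Mc2r was at 0. Cyp11a1, Cyp11b1, Cyp21a1, Dbh and Pnmt had no p-value there, at means from 50.1 to 576 and log2 fold changes from -9.24 to -4.23. Why these p-values are missing is not given, and without values per library it cannot be seen whether few or all libraries carried these changes. Of 8 tested adipocyte markers 6 were positive in the authors' deposited kidney table, with a median of 0.29, while Adrb3 passed at -3.44 (adjusted p = 0.000388). Without a call, all 9 tested hepatocyte markers (median -0.79) and all 11 acinar markers (-0.46) were negative in the heart. So were all 8 tested cardiomyocyte markers in the kidney (-0.60). The lists not named here held both signs in the heart and kidney. The part of these cells in the changes of Cdkal1, Trub2, Tyw1 and Tyw3 was not tested, and values per genotype are not in the tables. In the authors' deposited brain-named table all 9 tested pancreatic acinar markers were positive with a median of 4.19, Amy2a5 passed at 2.63 (adjusted p = 0.0425), and Cela2a was at 0. In the same authors' deposited table all 4 tested adrenal markers were negative with a median of -0.63, Cyp21a1 passed at -2.37 (adjusted p = 0.00216), and Mc2r was at 0. Positive there without a call were 9 of 10 tested hepatocyte markers (median 0.60) and 8 of 9 proximal tubule markers (0.47). The same held for 7 of 8 cardiomyocyte markers (0.42) and 8 of 10 neuron markers (0.17). The part of these cells in the brain-named values of Elp2, Elp3, Lcmt2, Mettl6 and Trmt11 was not tested. Without a call, proximal tubule markers were negative in the spleen for 9 of 10 tested genes (median -0.66). Negative there too were 9 of 10 hepatocyte markers (-0.19) and 9 of 11 acinar markers (-0.30). Under liver-named all 8 tested cardiomyocyte markers were negative (-0.16), and every other list held both signs. The part of these cells in the values of Pus1, Nsun2, Nsun3 and Nsun6 was not tested.

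Among the pseudouridine synthases, Pus1 differed between organs. This enzyme, which modifies cytosolic and mitochondrial tRNAs and whose loss in humans causes a myopathy with sideroblastic anaemia, was 1.24 ± 0.55 in the kidney and -1.33 ± 0.42 in the spleen of the authors' deposited tables (unadjusted p = 0.0231 and 0.00145, DESeq2 adjusted p = 0.294 and 0.227). Neither value passed alone. The difference of 2.58 ± 0.69, kidney minus spleen, had adjusted p = 0.0471 by the z test on the deposited DESeq2 values, in a pair of tables where 0.411% of 18486 genes passed. Adjusting over all genes with a p-value gave 0.0736, and rescaling gave 0.0751. Whether the markers of other cell types that leaned to one sign in these organs bear on this difference was not tested. Pus1 was also -0.92 ± 0.39 in the heart, -0.40 ± 0.39 in the brain-named and -0.91 ± 0.67 in the liver-named table of the authors' deposited set. Pus7, which acts on tRNA and mRNA in human cells, was 2.06 ± 0.81 in the authors' deposited heart table (adjusted p = 0.242), from a mean of 50.2 counts. Trub1 and Pus10, which place pseudouridine in the arm of the tRNA that holds the T loop, stayed between -0.56 and 0.67 in all 5 of the authors' deposited tables.

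Over all 10 pairs of tables, 2 of 538 member differences passed, those of Tyw1 and Pus1. Among all genes 0.393% of 179711 differences passed, and 39 member differences (7.25%) had an unadjusted p under 0.05, against 7.87% of all gene differences.

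**Figure D3:**
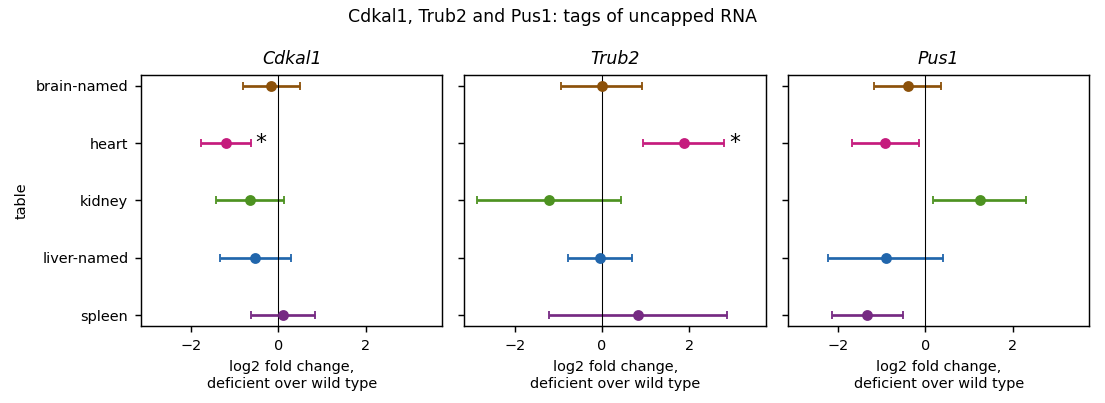
Log2 fold change (deficient over wild type, x axis) of Cdkal1, Trub2 and Pus1 in each deposited table (y axis); points are the authors' values, bars 1.96 SE either side, and asterisks an adjusted p under 0.05. Cdkal1 and Trub2 pass in the heart row only, and the Pus1 bars of kidney and spleen lie on opposite sides of 0.

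Enzymes of the wobble uridine changed nowhere beyond the threshold. The Elongator complex, with Elp3 as its catalytic subunit, adds a side chain to this uridine, Alkbh8 methylates it, and Ctu1 with Ctu2 replaces an oxygen by sulfur. All 8 members of this group were tested in all 5 tables. Elp2 and Elp3 were -1.0 ± 0.41 and -0.84 ± 0.35 in the authors' deposited brain-named table, with unadjusted p = 0.0157 and 0.0178 and DESeq2 adjusted p = 0.297 and 0.31. The other Elongator members of the set ran from -0.46 for Elp6 to 0.35 for Elp5, so these subunits did not share a sign in the authors' deposited table. Alkbh8 had the lowest value of the group, -1.81 ± 0.76 in the authors' deposited heart table (adjusted p = 0.302), and was between -0.79 and 0.57 elsewhere. Ctu1 and Ctu2 lay between -0.69 and 0.70 in all 5 of the authors' deposited tables. In mitochondria, Mto1 and Gtpbp3 place a taurine side chain on the same uridine and Trmu adds the sulfur. These 3 ran from -1.07 ± 0.57 for Gtpbp3 in the spleen to 0.71 ± 0.85 for Mto1 in the kidney of the authors' deposited tables, with no unadjusted p under 0.05.

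**Figure D4:**
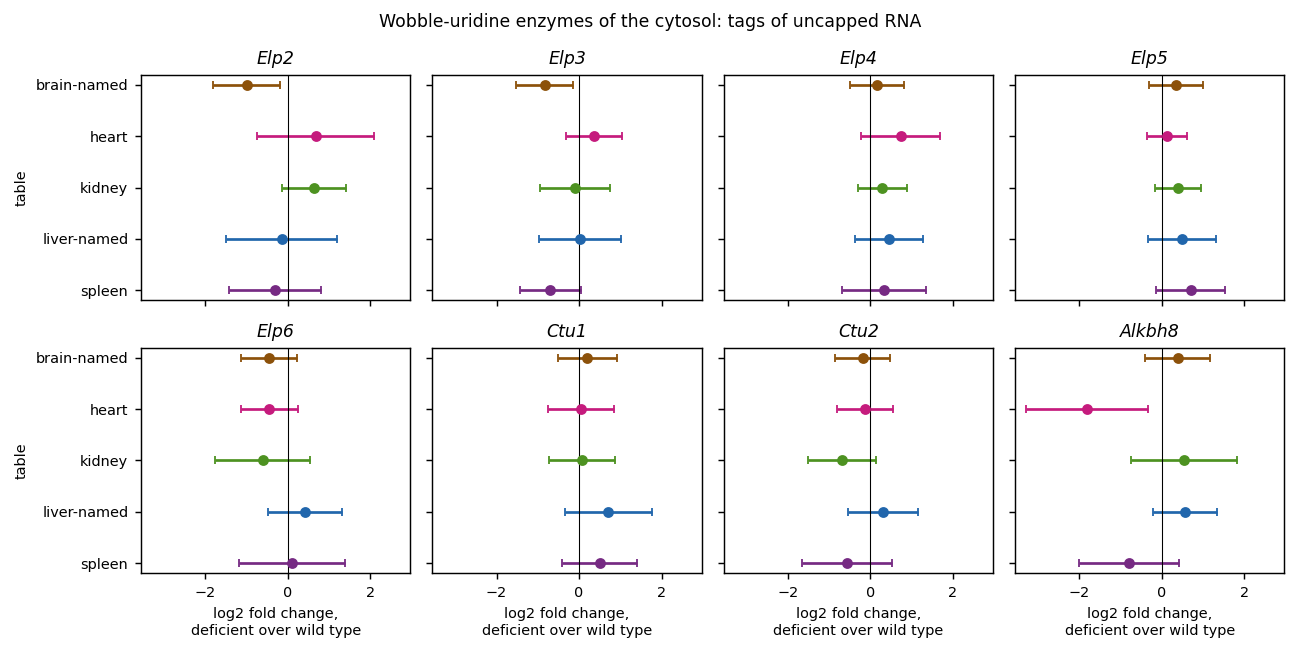
Log2 fold change (deficient over wild type, x axis) of 8 wobble-uridine enzymes in each deposited table (y axis); points are the authors' values and bars 1.96 SE either side. No value passes the 5% threshold, and the bars of Elp2 and Elp3 in the brain-named row and of Alkbh8 in the heart row stay below 0.

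No tags were listed for 2 members. Adat3, the partner of the deaminase Adat2 that turns wobble adenosine into inosine, and Trmt2a, which methylates a uridine of the T loop, were listed at 0 in all 5 of the authors' deposited tables. Both overlap another gene: Adat3 the membrane trafficking gene Scamp4, and Trmt2a the gene of Dgcr8, the partner of Drosha in miRNA processing. In all, 25 of the 59 members overlap a protein-coding gene in RefSeq, and the 23 others of these had tags. Scamp4 was itself at 0 in 3 tables and at most 2.82 normalized counts in the authors' deposited set, whereas Dgcr8 had means between 73.3 and 335. A member listed at 0 is not shown to be unexpressed, and how the authors counted tags that fall in overlapping genes is not given in the sources used here.

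The Adat3 and Trmt2a starts are shown because they are shared with another gene. The Adat3 window at chr10:80602630-80602929 (plus strand) shares 298 bases with the window of Scamp4 on the same strand, and that of Trmt2a at chr16:18248633-18248932 (plus strand) shares 288 bases with the window of Ranbp1, which runs the other way from a start 189 bases off. Capitals mark, in Trmt2a, ATTGG and GCGCATGC, which are CCAAT and GCATGCGC on the other strand.
Adat3: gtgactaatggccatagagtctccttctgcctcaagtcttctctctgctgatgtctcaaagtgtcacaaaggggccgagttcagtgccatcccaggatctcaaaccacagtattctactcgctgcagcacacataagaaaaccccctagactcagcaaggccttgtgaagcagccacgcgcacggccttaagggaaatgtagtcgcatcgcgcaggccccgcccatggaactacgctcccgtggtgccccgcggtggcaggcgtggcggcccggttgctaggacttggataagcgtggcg
Trmt2a: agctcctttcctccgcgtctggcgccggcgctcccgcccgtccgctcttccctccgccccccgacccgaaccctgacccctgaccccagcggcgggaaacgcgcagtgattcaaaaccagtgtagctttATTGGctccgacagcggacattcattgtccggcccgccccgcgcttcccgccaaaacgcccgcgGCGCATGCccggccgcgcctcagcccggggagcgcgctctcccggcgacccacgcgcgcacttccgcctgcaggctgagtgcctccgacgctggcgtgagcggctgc

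Ranbp1, a regulator of the GTPase Ran, had means from 29.0 to 134 normalized counts in the authors' deposited tables. The shared window of Trmt2a thus lies at a gene with tags, and that of Adat3 at a gene with next to none. Adat2, the catalytic partner of Adat3, was tested in every table and ranged from -1.71 ± 1.40 in the kidney to 0.84 ± 0.49 in the brain-named table of the authors' deposited set. Qtrt1 and Qtrt2, which together insert queuine at the wobble base, ranged from -0.66 to 0.51 in the authors' deposited tables with no unadjusted p under 0.05. Adat1, a deaminase of the adenosine beside the anticodon of tRNA-Ala, was highest at 1.29 ± 0.85 in the kidney of the authors' deposited set (adjusted p = 0.61).

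At the purine beside the anticodon, Trit1 adds an isopentenyl group, and Yrdc and Osgep make the threonylcarbamoyl adenosine of tRNAs that read codons starting with A. Trit1 lay between 0.00 and 0.62, Yrdc between -0.37 and 0.83, and Osgep between -0.55 and 0.88 in the authors' deposited tables, and none of them had an unadjusted p under 0.05.

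Cytosine methyltransferases gave unadjusted signals in 4 tables and no call. Nsun2, the main cytosine methyltransferase of cytosolic tRNA, was 0.85 ± 0.35 and Nsun3, which acts on mitochondrial tRNA-Met, 0.74 ± 0.36 in the authors' deposited liver-named table (adjusted p = 0.328 and 0.44). Nsun6 was 1.06 ± 0.53 in the authors' deposited spleen table (adjusted p = 0.802). Mettl2, which methylates a cytosine of the anticodon loop, was -1.49 ± 0.52 in the authors' deposited heart table (adjusted p = 0.157), while its relative Mettl6 was 0.81 ± 0.39 in the brain-named table (adjusted p = 0.41). Mettl8, the mitochondrial relative, and Trdmt1, which methylates tRNA-Asp, had no unadjusted p under 0.05. Alkbh1, which oxidises the methyl group that Nsun3 adds, was -1.26 ± 0.65 in the liver-named table of the authors' deposited set (adjusted p = 0.49).

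Guanosine methyltransferases outside the wybutosine pathway had 1 unadjusted signal. Trmt11, which works with Trmt112, was positive in all 5 of the authors' deposited tables, at 0.65 ± 0.52 for kidney, 0.56 ± 0.46 for heart, 0.81 ± 0.60 for spleen, 0.80 ± 0.42 for liver-named and 0.94 ± 0.36 for brain-named. No adjusted p was below 0.248, and 4 of the tables share their mice. This gene was singled out after its values were seen. Positive values in all 5 tables were also found for Elp4, Elp5, Ctu1, Trit1, Nsun2, Nsun6, Mettl8, Trmt61a and Dus2. Mettl1 and Wdr4, the pair that makes methylguanosine in the variable loop, ran from -0.09 to 0.44 and from -0.70 to 0.61 in the authors' deposited tables. Trmt1, which dimethylates a guanosine, lay between -0.27 and 0.59, and its relative Trmt1l between -1.18 and -0.13. Trmt112 and Trmt10a had means below 40 normalized counts in every table, Trmt10b reached 217, and their SE values ran up to 1.96 in the authors' deposited tables.

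Trmt6 and Trmt61a, the subunits of an adenosine methyltransferase, had log2 fold changes between -0.05 and 0.58 and SE between 0.35 and 0.59 in the authors' deposited tables. The mitochondrial methyltransferases Trmt2b, Trmt10c and Trmt61b had no unadjusted p under 0.05, and Trmt61b was tested in 3 tables only. Thg1l, which adds a guanosine to the end of tRNA-His, was -1.67 ± 0.94 in the authors' deposited kidney table (adjusted p = 0.50) and between 0.01 and 0.41 elsewhere.

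Dihydrouridine synthases were positive for all 4 members in the heart and in the kidney, organs of the same mice, without a call. Of the 4, 3 were positive under brain-named, 2 under liver-named and 2 in the spleen. Among all tested genes 51.1% were positive for heart and 49.1% for kidney, and among all tested members 67.3% and 59.3%. Dus3l was just outside the threshold in the authors' deposited kidney table, at 1.31 ± 0.44 (adjusted p = 0.0983). Dus4l was 1.76 ± 0.69 in the kidney and 1.58 ± 0.78 in the heart of the authors' deposited set (adjusted p = 0.198 and 0.445), from means of 58.2 and 48.1 counts. Dus2 ran from 0.21 ± 0.54 to 0.82 ± 0.58 and Dus1l from -0.49 ± 0.44 to 0.31 ± 0.40 in the authors' deposited tables.

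The level of a member across organs was compared as CPM, its mean in the table per 1000000 of the table's summed means, which pools both genotypes and carries no error. The tables were normalized separately, so an order between organs depends on the scaling. Of 57 members with a level, 28 were highest in the liver-named table, the one with neuron markers, 12 each in the kidney and spleen tables, 3 in the heart and 2 in the brain-named table. Among 14738 genes with a mean of 20 or more in every table, 37.7% were highest in the liver-named table, 25.7% in kidney, 18.6% in spleen, 10.2% in heart and 7.68% under brain-named. When the tables were scaled to each other by the median ratio over genes, a setting chosen after seeing the data, the counts became 15 for liver-named, 13 for kidney, 13 for spleen, 6 for heart and 10 for brain-named, and 40 members kept the same highest table. Under this scaling 22.7% of all genes were highest in the liver-named table, 17.6% in kidney, 21.0% in spleen, 19.2% in heart and 19.4% under brain-named. From its lowest to its highest table a member differed by a median of 4.19-fold in CPM and 2.89-fold after median-ratio scaling.

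Dus1l, Elp3, Tyw3, Alkbh1 and Trmt112 stood at least 2-fold above the next table under both scalings, with a mean of 20 or more in the highest. Dus1l, a dihydrouridine synthase, had 276 CPM in the brain-named table, the one with hepatocyte markers, followed by 108 in the kidney, 82.9 in the liver-named, 33.5 in the spleen and 22.02 in the heart table. Elp3 had 101 CPM in the liver-named table and 21.7 to 28.1 in the others. Tyw3 had 3.65 CPM in the kidney and 0.422 to 1.45 in the others, which includes its higher level in deficient kidneys. Alkbh1 had 10.5 CPM in the spleen, against 2.43 or less elsewhere. Trmt112 was also highest in the spleen, at 0.814 CPM against 0.27 or less. Its means were low, 39.7 normalized counts in the spleen and 9.39 to 14.8 in the other tables. These genes were picked for this pattern, no test was made of it, and the share of all genes that show it was not computed. Alkbh1 overlaps Nrp, Trmt112 overlaps Prdx5 and Esrra, and the levels of these neighbours were not compared. Dus1l overlaps Gps1, a COP9 signalosome subunit, whose mean in the authors' deposited brain-named table was 927 normalized counts, while its highest was 3341 in the liver-named table, so this pair did not share a highest table. Cryz, which overlaps Tyw3, had its highest mean in the kidney too, 1136 normalized counts against 23.9 to 240 in the other authors' deposited tables.

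The Dus1l start is shown as that of the member with the widest range between organs among these 5. Its window at chr11:120796346-120796645 (minus strand) has capitals at CCAAT, at GCATGCGC and at ACTTCCGG, which is the ETS core CCGGAAGT on the other strand.
Dus1l: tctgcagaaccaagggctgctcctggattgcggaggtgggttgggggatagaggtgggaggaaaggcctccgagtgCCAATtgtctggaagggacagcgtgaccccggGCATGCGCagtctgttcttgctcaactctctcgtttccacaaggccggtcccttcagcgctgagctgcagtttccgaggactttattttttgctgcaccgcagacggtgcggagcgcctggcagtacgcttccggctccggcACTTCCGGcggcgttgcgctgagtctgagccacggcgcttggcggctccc

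CCGGAAGT lay in 13 of 63 member windows, 20.6%, belonging to 11 genes, and in 3.89% of all windows. The E-box CACGTG was in 15.9% of member windows and 7.15% of all, ATGGCGGC in 4.76% and 2.24%, and TATAAA in 4.76% and 13.6%. Windows were found for 52 of the 59 members. Member windows also held more CG dinucleotides than the median window, and the motifs were chosen after some windows had been seen, so the shares are descriptions only.

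**Figure D5:**
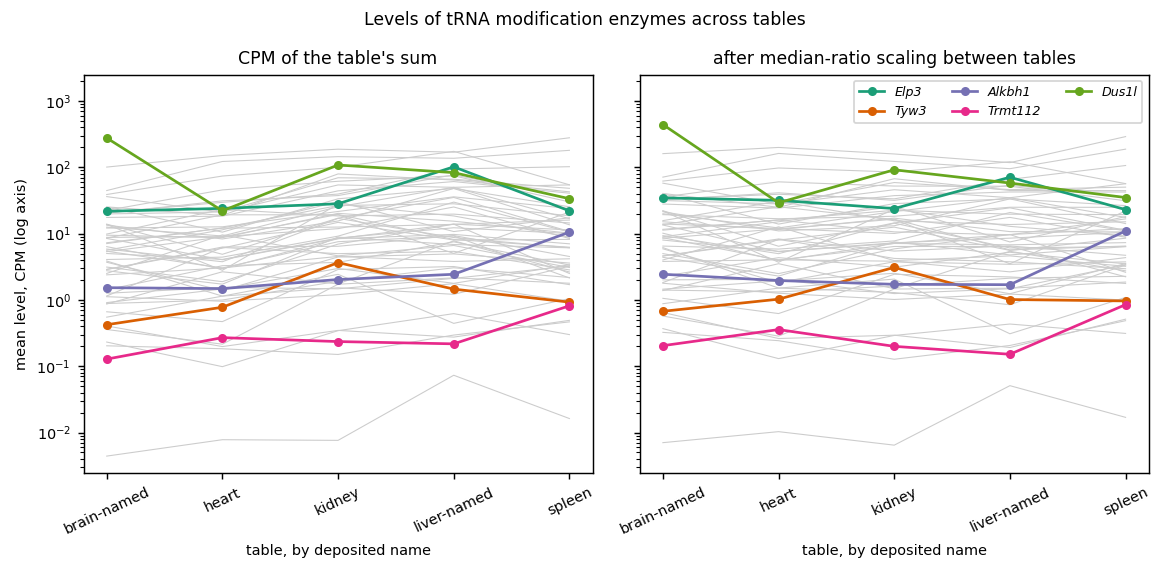
Mean level in CPM (y axis, log scale, both genotypes pooled, no error available) of the 57 members with a level in the 5 deposited tables (x axis), by the table's sum (left) and after median-ratio scaling between tables (right). Coloured lines are the 5 members that stand at least 2-fold above the next table in both panels, with Dus1l at 276 in the brain-named table on the left, and grey lines are the other members.

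Of 30 further tRNA modification genes found in the tables, from 26 to 28 were tested per table and none passed in any of the authors' deposited tables. Those with an unadjusted p under 0.05 were 1 for kidney, 1 for spleen, 4 for liver-named and none for heart and brain-named, beside the shares of all genes given above for each table (5.97% to 11.9%). Trmt13, which methylates the ribose in the acceptor stem, had the smallest p of these in the liver-named table, 1.80 ± 0.58 in the authors' deposited set (adjusted p = 0.165). Of 26 genes that cut, splice or export tRNA, from 22 to 24 were tested and none passed in the authors' deposited tables either, with an unadjusted p under 0.05 for 1 gene in kidney, 1 in heart, 1 in spleen, 4 under liver-named and 3 under brain-named. The partners of Ftsj1 did not pass: Wdr6, which guides it to the wobble base, was between -0.50 and 0.60, and Thada, which guides it to another nucleotide of the anticodon loop, was 1.78 ± 0.56 in the authors' deposited kidney table (adjusted p = 0.0616).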

How the data were processed

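Per the labels, an adapter was joined to the free ends of uncapped poly(A) RNA of whole organs, and short tags beside it were sequenced. Per the submitters' processing notes, GRCm39, featureCounts, Subread 2.0.3 and DESeq2 were used, with roles and model not given in the sources used here. The authors deposited 1 table per organ. The deposited mean is a signal in normalized counts over all libraries of the organ. The deposited fold change and SE are on the log2 scale, the deposited Wald statistic is a score equal to their quotient, and each deposited p-value, raw or adjusted, comes from the authors' DESeq2 run.

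No test per gene was rerun, and "tested" means having a deposited adjusted p. A false discovery rate of 5% was used. Differences between tables were tested by a 2-sided z from the deposited standard errors over all genes tested in both, adjusted by Benjamini-Hochberg within each pair and checked on simulated data. The simulation drew the tables independently with the deposited standard errors, so it could not show the effect of shared mice or of a wider spread. Intervals are 1.96 SE either side. Library depth is unknown, so the SE is the only precision. P-values measure the spread between the libraries, which the titles give to distinct mice.

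All members may be named, with values for those that passed, for the 5 smallest p-values per table and for complexes; of the other lists, those that passed and list medians. Trmt11, Trmt13, Cryz, Coq4, Gps1, Dgcr8, Scamp4 and Ranbp1 were named after their values were seen. The members and lists were chosen with earlier results of these data known. Overlaps use gene spans of RefSeq on GRCm38. Tools were pandas 2.3.3 with numpy 2.4.6, scipy 1.17.1 and, for figures, matplotlib 3.10.9 in Python 3.11.15.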

Additional observations from a re-analysis of the deposited data

Results flagged for a closer look

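In 2 members the genotype effect differed between organs by a test of the difference itself, which makes 2 of the 538 member differences tested. Among all genes 0.393% of 179711 differences passed. For Tyw1 the heart exceeded the kidney by 1.84 on the log2 scale, with fold changes of 0.58 in the heart and -1.25 in the kidney in the authors' deposited tables, from the same mice. For Pus1 the kidney exceeded the spleen by 2.58, with 1.24 in the kidney and -1.33 in the spleen in the authors' deposited tables, from different mice. The adjusted p was 0.0305 for Tyw1 and 0.0471 for Pus1 by the z test on DESeq2 values. Neither stayed under 0.05 after the z was rescaled by its robust spread.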

How the results depend on the processing

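The counts of members that passed moved with the threshold. In the heart, 1 passed at a 1% rate and 0 after the statistic was rescaled by its robust spread, against 2. In the kidney, 1 passed at 1%, 1 when every gene with a p-value was adjusted over, and 1 after rescaling, against 2. At a 10% rate 3 passed in each, with Trmt5 added in the heart and Dus3l in the kidney. Of the differences between tables, 1 passed when genes with a p-value in both were used and 0 after rescaling, against 2. Highest levels per table became 10 in the brain-named, 6 in the heart and 15 in the liver-named table under median-ratio scaling, against 2, 3 and 28. Of the 69 alternative values computed, 55 were classed as the same, 10 as moved and 4 as weaker. The 55 include all alternatives to the medians, for which no error was computed, and the counts of 3 at a 10% rate. They also include counts that were 0 under every setting, so they do not measure robustness. No paired analysis was possible because the tables hold no values per library, and for the same reason leaving out a replicate was not run. Members with the lowest means had SE of up to 4.08 (Pus3), so a 2-fold change in them was not detectable. The weighted mean of the members' log2 fold changes was -0.04 in spleen against a median of 0.03, and 0.03 in kidney against 0.26.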
